A study of Mus musculus with 16 samples.

Results

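Liver RNA from female mice without the hepatic glucagon receptor was compared with liver RNA from female controls, across all genes with enough counts to be tested. The comparison takes the 8 female livers of a series of 16, chosen by sex and genotype as labelled, with 4 livers in each group. The knockout mice (LKO) carried a Gcgr gene with LoxP sites around part of it and Albumin-Cre, which is active in hepatocytes from development onwards. The controls (CRE-) carried the floxed gene without Cre. All were C57BL/6J females aged 20 to 22 months, and 4 male CRE- and 4 male LKO livers of the same age were sequenced beside them. The study examined how loss of hepatic glucagon signaling bears on health and lifespan in aging mice of both sexes.

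Glucagon is released by pancreatic alpha cells and acts on hepatocytes through GCGR, a receptor that couples to Gs and raises cAMP. In the liver this signal is known for its effects on glucose output and on the breakdown of amino acids to urea, and for limiting fat synthesis. When the receptor is lost, amino acids in the blood and the number of alpha cells are known to rise.

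The 8 libraries held between 33268424 and 56488920 counted reads, in which both mates of a pair were counted. Controls held 47314223, 56488920, 46228166 and 46367609 reads in replicates 1 to 4, and LKO libraries held 35086109, 39611392, 48265539 and 33268424. Xist was between 137 and 399 CPM (read counts scaled to the size of the library) in the 8 libraries, and Ddx3y, on the Y chromosome, had no read in any of them. Albumin was the most abundant of the 21 hepatocyte identity genes tested, so the labelled tissue and sex matched these markers. It took 8.81, 8.20, 8.52 and 8.51% of the reads in CRE- replicates 1 to 4 and 4.72, 7.29, 7.87 and 5.54% in LKO replicates 1 to 4.

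Gcgr, on chromosome 11 from 120420011 to 120429815 of GRCm39, was at 162, 208, 201 and 180.0 CPM in CRE- replicates 1 to 4 and 48.8, 132, 119 and 93.6 CPM in LKO replicates 1 to 4. Every LKO liver was below every control, with replicate 1 lowest and replicate 2 highest within the LKO group. The counts cover the whole gene, including exons outside the floxed segment, so they do not measure the intact transcript alone. The log2 fold change of LKO over CRE- was -0.93 (SE 0.25), with an adjusted p of 0.0443 from edgeR's quasi-likelihood test after Benjamini-Hochberg adjustment. With a liver left out, it passed the threshold of 0.05 in 1 fit of 8, the one without LKO replicate 2 (adjusted p = 0.0225, where the others ran up to 0.136, from the same edgeR test after Benjamini-Hochberg adjustment). The log2 fold change of Gcgr then ran from -1.11 to -0.69, and it was -0.88, -0.90 and -0.93 with CRE- replicates 2, 3 and 4 left out and -0.69, -1.04 and -0.90 with LKO replicates 1, 3 and 4 left out, while CRE- replicate 1 gave an adjusted p of 0.0573 in that edgeR test after Benjamini-Hochberg adjustment. Among 18 genes of the receptor's cAMP cascade tested, 1 was higher and 1, Gcgr itself, was lower, beside 2.09% higher and 2.15% lower over all genes tested. Counts this small say little about the cascade as a whole. The higher one was Sik1, a kinase whose gene is induced by cAMP, at 18.5, 19.04, 15.3 and 16.3 CPM in CRE- replicates 1 to 4 and 48.7, 58.6, 25.2 and 191 CPM in LKO replicates 1 to 4. No overlap was seen for Sik1, and LKO replicate 4 stood far above the others. Its log2 fold change was 2.22 (SE 0.46) and fell to 1.35 without LKO replicate 4, where it was still called. The call ended without CRE- replicates 2, 3 and 4, with log2 fold changes of 2.27, 2.17 and 2.22.

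The genes lower in female livers without the receptor included some of lipid synthesis, xenobiotic metabolism, female-biased expression and amino acid breakdown, and the higher ones some of amino acid stress, cell division, oncofetal expression, neutrophils and macrophages. Of 16742 genes tested, 4.24% (710) differed at an adjusted p under 0.05 in edgeR's quasi-likelihood test after Benjamini-Hochberg adjustment. Higher genes made up 2.09% (350) and lower genes 2.15% (360), and such genes are called DEGs here. An unadjusted p under 0.05 was found for 3584 of the 16742 genes. At an adjusted p under 0.05, DESeq2 called 1816 of them (1066 higher, 750 lower) and limma-voom 1976 (1073 higher, 903 lower). Counts within a gene list are to be read beside these numbers. The higher DEGs came from a low level, with a median of 1.59 CPM in controls, and had a median log2 fold change of 2.01. Lower DEGs started from a median of 66.4 CPM and had a median log2 fold change of -1.09. Over all genes tested the median was 0.04. At least a doubling was seen in 318 of the higher DEGs, and 210 of the lower DEGs fell by at least as much. The groups did not overlap in 11.6% of all genes tested (1944), of which 625 were DEGs.

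All 4 LKO livers moved in the direction of the DEGs, but by different amounts. The DEGs were selected on these same livers, which favours that direction, so only the amounts are compared here. Against the control mean, the median log2 difference over the higher DEGs was 2.29, 1.09, 1.59 and 1.81 in LKO replicates 1 to 4, and over the lower DEGs it was -1.51, -0.85, -1.02 and -1.23. Replicate 1 was the highest liver for 188 of the 350 higher DEGs and the lowest for 210 of the 360 lower ones. Replicate 4 held these places for 104 and 101, and replicate 2 for 28 and 15. The first principal component of log2 CPM (39.2% of the variance) placed LKO replicate 1 at 114 and LKO replicates 2, 3 and 4 at -3.11, 22.3 and 50.6, with the controls between -59.6 and -22.9. On the second component (19.6% of the variance) LKO replicates 1 and 4 lay at opposite ends, at -59.6 and 90.7. Deviations from the control mean in LKO replicate 1 also went with the exon length of the gene (Spearman 0.34 across genes, which are not independent). The value was 0.23, 0.12 and 0.07 in CRE- replicates 1 to 3 and of the opposite sense in CRE- replicate 4 (-0.31). In LKO replicates 2 to 4 it lay between -0.03 and -0.01. The part of that trend in the results was not tested.

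**Figure D1:**
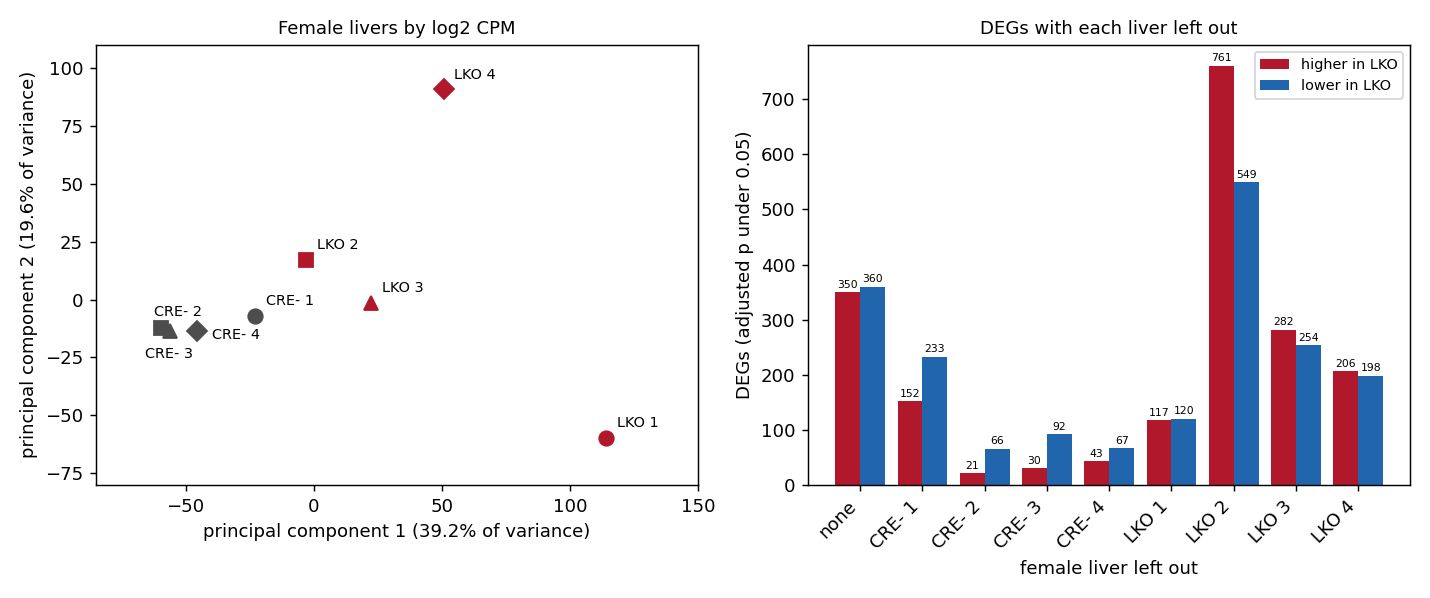
Left, the 8 female livers on the first and second principal components of log2 CPM, which carry 39.2% and 19.6% of the variance, with CRE- livers in grey and LKO livers in red. Right, the number of genes higher (red bars) and lower (blue bars) in LKO livers at an adjusted p under 0.05 with all livers and with each left out in turn. LKO replicates 1 and 4 lie farthest from the controls, and the counts run from 21 higher and 66 lower genes without CRE- replicate 2 to 761 higher and 549 lower genes without LKO replicate 2.

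The number of DEGs depended on single livers. It was 385, 87, 122 and 110 when CRE- replicates 1 to 4 were left out in turn, and 237, 1310, 536 and 404 when LKO replicates 1 to 4 were. Of the 710 DEGs, 71 were called in every one of these 8 fits (18 higher and 53 lower), 13 were called in none, and all 710 kept their direction in all 8. Each fit reused most of the livers on which the DEGs were selected, so a kept direction was likely from the start. When the 8 female livers were fitted without the male ones, 0.756% of 15744 genes were called, 47 higher and 72 lower. Those 119 included 107 of the 710.

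The genes named next are the 15 lower and 15 higher DEGs with the smallest p among those whose groups did not overlap, and each was called in all 8 fits that left out a liver. Ces3b, a carboxylesterase of the endoplasmic reticulum, had the smallest p and was at 92.6, 124, 134 and 102 CPM in CRE- replicates 1 to 4 and 6.29, 11.1, 17.7 and 12.99 CPM in LKO replicates 1 to 4. The lowest control was several times above the highest LKO liver, and the log2 fold change was -3.23 (SE 0.35), with an adjusted p of 0.00110 from edgeR's quasi-likelihood test after Benjamini-Hochberg adjustment. Dct, the dopachrome tautomerase of melanin synthesis, was at 11.6, 32.7, 16.6 and 22.8 CPM in CRE- replicates 1 to 4 and 0.856, 0.748, 0.695 and 0.174 CPM in LKO replicates 1 to 4, a log2 fold change of -5.06 (SE 0.65). Its LKO values were near or under 1 CPM in all 4 livers. Sucnr1, a receptor for succinate, averaged 77.7 ± 21.5 CPM in the 4 controls and 10.8 ± 5.32 CPM in the 4 LKO livers (mean ± SD), with LKO replicate 1 lowest at 4.18 CPM. Eci3, an isomerase of fatty acid oxidation, was at 12.7, 27.8, 11.1 and 35.1 CPM in CRE- replicates 1 to 4 and 0.629, 2.59, 1.55 and 0.260 CPM in LKO replicates 1 to 4. Controls varied for Eci3 more than for Ces3b, yet the lowest control stayed above every LKO liver. Grid1, a subunit of the delta family of glutamate receptors, had a log2 fold change of -3.75 (SE 0.53), and Chic1, an X-linked gene, of -2.81 (SE 0.36). Smaller but even decreases were found for Mmp19, a matrix metalloproteinase, at 108, 126, 101 and 133 CPM in CRE- replicates 1 to 4 and 43.1, 59.8, 50.2 and 58.7 CPM in LKO replicates 1 to 4. No LKO liver reached the lowest control for that gene. Spns2, which exports sphingosine 1-phosphate, had a log2 fold change of -1.13 (SE 0.17). Ido2, an enzyme of tryptophan breakdown, and Cwf19l1 had log2 fold changes of -1.32 (SE 0.20) and -1.13 (SE 0.17).

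Predicted genes supplied 3 of the 15 lower ones. Gm32840, with a log2 fold change of -3.79 (SE 0.46), lies on chromosome 15 from 96942021 to 97004813 and overlaps the amino acid transporter gene Slc38a4 on the opposite strand. Slc38a4 was itself lower, at -0.84, and reads were counted by strand. Gm15343 (-1.89) lies on chromosome 10 from 76400599 to 76406366, beside Ftcd, an enzyme of histidine breakdown that was also lower (-1.17). Gm15337 had a log2 fold change of -3.18 (SE 0.43), with 6.88, 9.34, 5.94 and 7.14 CPM in controls and 0.352, 1.35, 0.988 and 0.521 CPM in LKO livers. It lies on chromosome 18 from 39485230 to 39504477, within the span of Arhgap26 on the opposite strand, which was also lower (-1.17). The remaining genes of the 15, Cyp3a41b and Pnpla3, are described with their groups.

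Among the 15 higher genes, Asns, Psat1, Nek2 and Ly6d are described with their groups. Lhx6, a LIM homeobox transcription factor, was at 6.99, 4.79, 2.75 and 6.04 CPM in CRE- replicates 1 to 4 and 16.5, 15.6, 21.6 and 17.9 CPM in LKO replicates 1 to 4. The LKO livers lay close together and all above the highest control, CRE- replicate 1, with a log2 fold change of 1.80 (SE 0.25) and an adjusted p of 0.00274 from edgeR's quasi-likelihood test after Benjamini-Hochberg adjustment. Lepr, the leptin receptor, was at 2.84, 2.14, 3.45 and 1.18 CPM in CRE- replicates 1 to 4 and 29.6, 64.2, 82.95 and 5.81 CPM in LKO replicates 1 to 4. Replicate 4 was nearest to the controls there, while replicates 2 and 3 were highest, and the log2 fold change was 4.25 (SE 0.74). Wnt10a, a secreted Wnt ligand, was at 0.0444, 0.0779, 0.0958 and 0.0535 CPM in CRE- replicates 1 to 4 and 1.61, 31.1, 3.49 and 11.7 CPM in LKO replicates 1 to 4, so it was near the limit of counting in controls and varied widely among LKO livers. Cyp4a31, of a family of fatty acid hydroxylases, had a log2 fold change of 2.25 (SE 0.36) with replicate 2 highest at 47.1 CPM. Peg10, an imprinted gene derived from a retrotransposon, was at 0.311, 0.234, 0.383 and 0.160 CPM in CRE- replicates 1 to 4 and 6.49, 2.24, 1.4999 and 2.43 CPM in LKO replicates 1 to 4. Every LKO liver exceeded the highest control for Peg10 several-fold. Dusp4, a phosphatase of MAP kinases, showed even values, with 1.46, 1.64, 2.15 and 1.39 CPM in controls against 4.43, 4.74, 4.24 and 3.76 CPM in LKO livers. Uap1l1 and Renbp, which handle amino sugars, had log2 fold changes of 1.66 (SE 0.29) and 1.62 (SE 0.29).

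Some genes were at or near 0 in a group, where a fitted fold change depends on the prior count. Baiap2l2, a membrane-bending protein, had 0 reads in all controls and 0.302, 5.91, 1.50 and 4.31 CPM in LKO replicates 1 to 4, at least 83.1-fold higher against a floor of 3 read pairs (6 reads) over the group. Baalc had 2 reads in all controls together and 312 in the LKO group, at 0.856, 2.44, 2.23 and 1.68 CPM in replicates 1 to 4, a ratio of 162 with a 95% exact counting interval of 28.7 to 6441 on read pairs, as both mates were counted. Adm2, which encodes a peptide hormone, likewise had 2 and 162 reads, a ratio of 84.1 (14.7 to 3364). The 2 control reads lay in a single liver for each of these genes, CRE- replicate 2 for Baalc and CRE- replicate 1 for Adm2. Ren1 and Trhde were chosen after their values were seen. Ren1, which encodes renin, had 0 reads in controls and 218 in LKO livers, at least 37.7-fold higher, and its LKO values were 0.806, 3.94, 0.439 and 0.116 CPM. Trhde, a peptidase that degrades thyrotropin-releasing hormone, had 216 reads in controls and 0 in LKO livers, at least 34.7-fold lower. These intervals and floors cover counting error only.

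**Figure D2:**
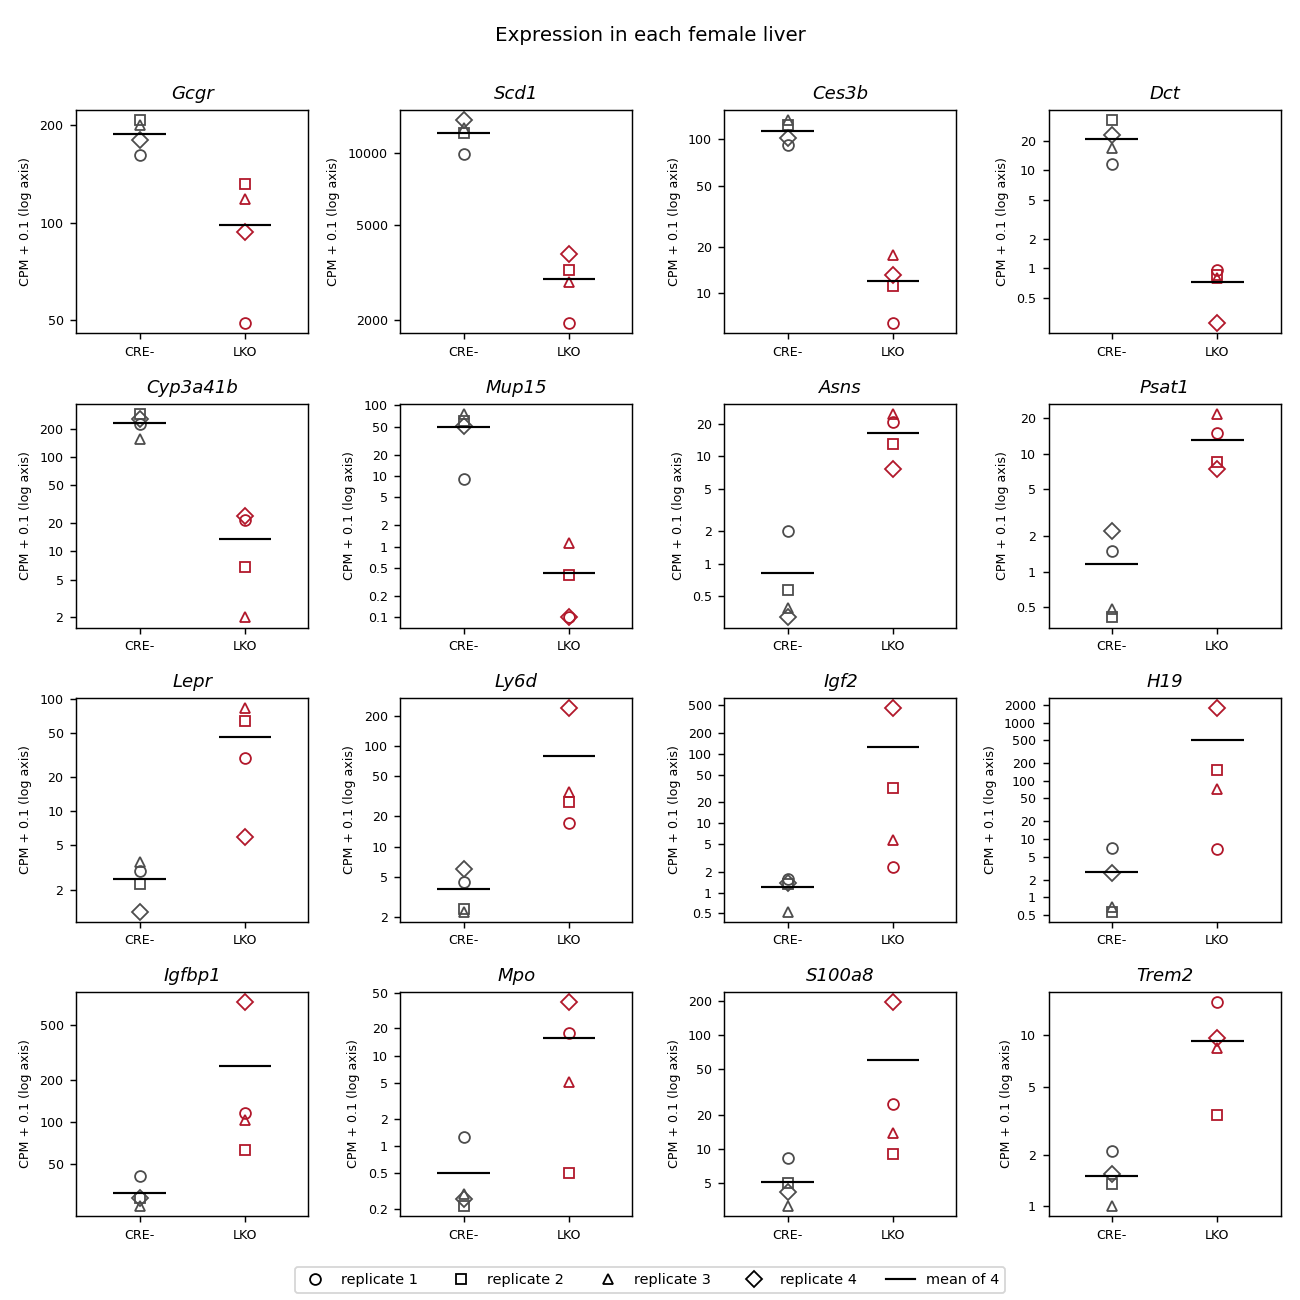
CPM of 16 genes in each female liver on a log axis, with 0.1 added so that 0 can be drawn. Symbols give the replicate, grey stands for CRE- and red for LKO, and the line is the mean of 4 livers. Scd1, Ces3b, Dct, Cyp3a41b, Mup15, Asns, Psat1, Lepr, Ly6d, Igf2, Igfbp1, S100a8 and Trem2 separate the groups, as Gcgr does, while LKO replicate 1 overlaps the controls for H19 and LKO replicate 2 does for Mpo.

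Of 20 de novo lipogenesis genes tested, 12 were lower and none higher, beside 2.15% lower and 2.09% higher over all genes, and their median log2 fold change was -1.25 against 0.04 over all genes. The list's mean log2 CPM lay -1.81, -0.95, -1.18 and -1.08 from the control mean in LKO replicates 1 to 4, with the controls at -0.27 to 0.29. All 4 LKO livers took part. Scd1, which makes monounsaturated fatty acids and was the most abundant gene of the list, was at 9839, 12131, 12617 and 13706 CPM in CRE- replicates 1 to 4 and 1935, 3239, 2891 and 3766 CPM in LKO replicates 1 to 4. Even the highest LKO liver held well under the lowest control, a log2 fold change of -2.03 (SE 0.32) with an adjusted p of 0.00550 from edgeR's quasi-likelihood test after Benjamini-Hochberg adjustment. Pnpla3, a lipid droplet protein whose gene is driven by SREBP-1c, was at 83.9, 29.9, 49.2 and 47.04 CPM in CRE- replicates 1 to 4 and 2.92, 8.35, 8.08 and 11.5 CPM in LKO replicates 1 to 4, a log2 fold change of -2.77 (SE 0.40). CRE- replicate 1 was the highest control and LKO replicate 1 the lowest LKO liver, without overlap. Upstream of these, Srebf1, which encodes SREBP-1c, was at 487, 366, 643 and 561 CPM in CRE- replicates 1 to 4 and 140.3, 252, 186 and 206 CPM in LKO replicates 1 to 4. The groups did not overlap, and replicate 1 was again lowest, but the call held in 1 of the 8 fits, without LKO replicate 2 (-1.54). Acss2 and Acly, which supply acetyl-CoA, had log2 fold changes of -1.78 (SE 0.31) and -1.18 (SE 0.24). Fasn, fatty acid synthase, averaged 1438 ± 360.1 CPM in the 4 controls and 528 ± 131 CPM in the 4 LKO livers (mean ± SD), and Acacb, an acetyl-CoA carboxylase, had a log2 fold change of -1.31 (SE 0.27). Enzymes that lengthen and desaturate polyunsaturated fatty acids were lower too, namely Elovl5 (-1.40), Fads1 (-0.99) and Fads2 (-1.08). These 3 were called in 3, 6 and 1 of the 8 fits, in that order. The 12 calls became 8, 6, 4 and 3 with CRE- replicates 1 to 4 left out in turn and 4, 13, 8 and 8 with LKO replicates 1 to 4 left out, and were 6 with the female livers fitted alone, while the median stayed between -1.31 and -1.08 in the 8 fits.

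Of 24 genes of cholesterol synthesis and uptake, 3 were lower and none higher, beside 2.15% lower and 2.09% higher over all genes. Their median log2 fold change was -0.31. The list's mean log2 CPM was -1.01, -0.52, -0.76 and 0.21 from the control mean in LKO replicates 1 to 4, so replicate 4 lay within the control range, and the median was -0.67 without it, -0.18 without CRE- replicate 4 and -0.20 without LKO replicate 1. The 3 calls became 2, 2, 1 and 1 with CRE- replicates 1 to 4 left out in turn and 2, 4, 2 and 4 with LKO replicates 1 to 4 left out. Insig1, which retains SREBPs in the endoplasmic reticulum, had a log2 fold change of -1.22 (SE 0.25), and Sc5d, a late enzyme of cholesterol synthesis, of -1.32 (SE 0.25). Insig1 lost its call without CRE- replicates 3 and 4 (log2 fold change -1.22 and -1.08), whereas Sc5d was called in all 8 fits. Among 21 bile acid genes 4 were lower, with a median of -0.39 (-0.23 without LKO replicate 1), and those calls became 2, 0, 0 and 0 with CRE- replicates 1 to 4 left out in turn and 0, 4, 2 and 0 with LKO replicates 1 to 4 left out. Of 36 genes of fatty acid oxidation and ketogenesis 1, Cyp4a31, was higher and none lower in a list that does not hold Eci3 (median -0.41, or -0.23 and -0.25 without LKO replicates 1 and 4), and LKO replicates 1 and 4 stood apart, as the list lay -0.76, 0.31, 0.13 and -0.78 from the control mean. None of 21 lipid droplet and triglyceride genes was called by edgeR (median -0.41, or -0.47 to -0.12 with each liver left out, least without LKO replicate 4), where 8 had an unadjusted p under 0.05 and DESeq2 called 3 as lower and limma-voom 1 as lower and 1 as higher. That list does not hold Pnpla3, which was counted under lipogenesis.

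Of 35 genes tested that are induced by ATF4, the transcription factor of the amino acid stress response, 12 were higher and none lower. Over all genes 2.09% were higher and 2.15% lower. The 35 genes had a median log2 fold change of 1.18. Their mean log2 CPM was 1.14, 1.08, 1.60 and 0.96 above the control mean in LKO replicates 1 to 4, so that replicate 3 was highest and the livers were more alike than for most lists. Asns, asparagine synthetase, was at 1.91, 0.467, 0.287 and 0.214 CPM in CRE- replicates 1 to 4 and 20.7, 12.9, 24.8 and 7.58 CPM in LKO replicates 1 to 4. No LKO liver came near the highest control, CRE- replicate 1, and the log2 fold change was 4.50 (SE 0.62) with an adjusted p of 0.00274 from edgeR's quasi-likelihood test after Benjamini-Hochberg adjustment. Serine synthesis was represented by Psat1, at 1.42, 0.311, 0.383 and 2.14 CPM in CRE- replicates 1 to 4 and 14.9, 8.45, 21.7 and 7.35 CPM in LKO replicates 1 to 4. No LKO liver fell to the level of a control, although CRE- replicates 1 and 4 were above the other controls. Phgdh, the enzyme before it, had a log2 fold change of 2.15 (SE 0.42). Mitochondrial folate enzymes joined them, with Mthfd2 at 2.12 (SE 0.47) and Mthfd1l at 2.21 (SE 0.48). Trib3, a pseudokinase induced by stress, was at 4.13, 3.31, 9.31 and 6.58 CPM in CRE- replicates 1 to 4 and 16.4, 20.6, 25.005 and 8.79 CPM in LKO replicates 1 to 4, where LKO replicate 4 fell within the control range. Fgf21, a hormone of fasting and amino acid stress, showed the same exception, since LKO replicate 4 was at 1.504 CPM against 90.9 CPM in replicate 3. Sesn2, an inhibitor of mTORC1, and Slc7a1, a cationic amino acid transporter, had log2 fold changes of 1.15 (SE 0.28) and 1.80 (SE 0.45). The 12 calls became 8, 3, 4 and 3 with CRE- replicates 1 to 4 left out in turn and 6, 15, 7 and 13 with LKO replicates 1 to 4 left out, and 4 were called with the females fitted alone. None of 20 aminoacyl-tRNA synthetase genes was called by edgeR (3 with an unadjusted p under 0.05, 1 higher and 1 lower by DESeq2 and 1 lower by limma-voom), and none of 20 genes of the unfolded protein response was (1 with an unadjusted p under 0.05 and 1 lower by DESeq2 and by limma-voom). Their medians were 0.05 and -0.16, or 0.02 to 0.12 and -0.27 to -0.04 with each liver left out.

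Promoters of the ATF4 list were searched for TGATGNAA, the core that C/EBP-ATF elements share, on both strands of 300 bases from 250 before to 50 after the start of each gene, from RefSeq on GRCm38.p6. The letters were found in 1304 of 32851 promoters (3.97%), or in a promoter of 1219 of 27025 genes (4.51%). Of the 35 genes tested 30 matched a promoter, and 10 of those had it. All 12 higher genes matched and 4 had it, and these are shown because they were called and hold the letters. Capitals mark the match on either strand, and a match is no evidence of binding.
Asns (chr6:7693160-7693459, - strand): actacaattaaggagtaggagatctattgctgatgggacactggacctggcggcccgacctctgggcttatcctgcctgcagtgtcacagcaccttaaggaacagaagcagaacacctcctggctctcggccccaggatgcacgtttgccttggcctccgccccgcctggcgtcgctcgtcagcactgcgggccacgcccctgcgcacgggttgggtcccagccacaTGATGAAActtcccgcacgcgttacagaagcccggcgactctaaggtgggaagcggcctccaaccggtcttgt
Fgf21 (chr7:45615441-45615740, - strand): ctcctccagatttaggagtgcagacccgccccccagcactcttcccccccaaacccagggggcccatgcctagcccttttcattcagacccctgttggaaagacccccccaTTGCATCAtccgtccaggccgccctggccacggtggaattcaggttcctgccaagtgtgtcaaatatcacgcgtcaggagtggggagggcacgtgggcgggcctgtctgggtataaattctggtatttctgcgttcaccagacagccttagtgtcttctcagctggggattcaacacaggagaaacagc
Jdp2 (chr12:85599166-85599465, + strand): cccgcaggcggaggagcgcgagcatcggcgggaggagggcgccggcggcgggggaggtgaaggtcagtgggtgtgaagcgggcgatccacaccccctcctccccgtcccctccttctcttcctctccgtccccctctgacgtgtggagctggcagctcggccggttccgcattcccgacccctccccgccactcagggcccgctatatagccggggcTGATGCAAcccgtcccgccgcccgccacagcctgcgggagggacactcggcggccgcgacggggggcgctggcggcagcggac
Trib3 (chr2:152344011-152344310, - strand): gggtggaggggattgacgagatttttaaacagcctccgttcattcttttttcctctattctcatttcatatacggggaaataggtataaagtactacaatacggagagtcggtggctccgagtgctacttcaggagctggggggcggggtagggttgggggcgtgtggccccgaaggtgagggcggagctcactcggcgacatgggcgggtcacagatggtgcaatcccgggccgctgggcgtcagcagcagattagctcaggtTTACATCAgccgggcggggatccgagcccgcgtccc
Jdp2, a repressor of the AP-1 family, was at 2.31, 2.18, 2.01 and 3.69 CPM in CRE- replicates 1 to 4 and 12.6, 3.89, 5.09 and 4.45 CPM in LKO replicates 1 to 4, a log2 fold change of 1.35 (SE 0.37) that passed in 1 of the 8 fits without a liver. In those fits its log2 fold change ran from 0.83 to 1.59.

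Of 50 genes tested that break down amino acids, 11 were lower and none higher by edgeR, beside 2.15% lower over all genes. At an unadjusted p under 0.05 there were 38, beside 3584 of 16742 over all genes. The median log2 fold change of the 50 was -0.76. DESeq2 called 22 as lower and 1 as higher, and limma-voom 29 as lower and 0 as higher. The list lay -1.54, -0.24, -0.88 and -0.78 from the control mean in LKO replicates 1 to 4, and replicate 2 lay within the control range. Afmid, of the kynurenine branch of tryptophan breakdown, was at 159.5, 207, 173 and 195 CPM in CRE- replicates 1 to 4 and 66.3, 94.9, 85.1 and 109 CPM in LKO replicates 1 to 4. This gene was called in all 8 fits, with a log2 fold change of -1.05 (SE 0.17). Haao, later in the same branch, averaged 673 ± 126 CPM in the 4 controls and 249.5 ± 109 CPM in the 4 LKO livers (mean ± SD). Ftcd, which ends histidine breakdown, was at 318, 364, 381 and 346 CPM in CRE- replicates 1 to 4 and 90.6, 249, 179 and 109 CPM in LKO replicates 1 to 4. Replicates 1 and 4 were the lowest for Ftcd, and no LKO liver reached a control. Gldc, of the glycine cleavage system, had a log2 fold change of -1.34 (SE 0.31), Agxt, which takes glyoxylate to glycine, of -1.32 (SE 0.34), and Cbs, which begins transsulfuration, of -0.78 (SE 0.21). The 11 calls became 8, 1, 1 and 1 with CRE- replicates 1 to 4 left out in turn and 2, 25, 6 and 3 with LKO replicates 1 to 4 left out, with 1 in the females fitted alone. Among 8 urea cycle genes edgeR called 1 as lower, or 0, 0, 0, 0, 0, 4, 0 and 1 with CRE- replicates 1 to 4 and then LKO replicates 1 to 4 left out, DESeq2 2 and limma-voom 5. The 1 was Otc, at 407, 588, 638 and 433 CPM in CRE- replicates 1 to 4 and 99.5, 357, 273 and 129 CPM in LKO replicates 1 to 4. Every LKO liver was lower, and LKO replicate 2 came nearest to the controls. Its log2 fold change was -1.27 (SE 0.34), called without LKO replicate 2 (-1.63) and not without any other liver. Cps1 and Ass1 had log2 fold changes of -0.76 (SE 0.32) and -1.05 (SE 0.40) and were not called, though Ass1 was without LKO replicate 2 (-1.59), and LKO replicate 2 was at 2366 and 3287 CPM, within the controls for both.

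Of 20 amino acid transporter genes tested, 1 was higher (Slc7a1) and 3 lower, beside 2.09% higher and 2.15% lower over all genes. DESeq2 called 4 of the 20 higher and 3 lower. The median was 0.46, and 14 of the 20 log2 fold changes were above 0, beside 8891 of 16742 over all genes. The list stood 0.16, 0.56, 0.33 and 0.42 above the control mean in LKO replicates 1 to 4, against -0.17 to 0.06 in controls. The higher calls became 1, 0, 0 and 0 with CRE- replicates 1 to 4 left out in turn and 0, 2, 0 and 2 with LKO replicates 1 to 4 left out, and the lower ones 1, 0, 1 and 0 with CRE- replicates 1 to 4 left out in turn and 1, 4, 1 and 1 with LKO replicates 1 to 4 left out. Slc7a1 was called in 3 of the 8 fits, and its log2 fold change was 1.20 without LKO replicate 1. Slc38a4, a transporter of neutral amino acids, was at 879.8, 962, 1188 and 889 CPM in CRE- replicates 1 to 4 and 465, 828, 439 and 457 CPM in LKO replicates 1 to 4, and Slc6a12, which carries betaine and GABA, had a log2 fold change of -0.95 (SE 0.19). Both calls were lost without CRE- replicates 2 and 4, with log2 fold changes of -0.85 and -0.86 for Slc38a4 and -0.95 and -0.85 for Slc6a12. Slc38a4 also lost it without CRE- replicates 1 and 3 (-0.89 and -0.74) and LKO replicates 1, 3 and 4 (-0.75, -0.75 and -0.76). None of 12 gluconeogenesis genes was called by edgeR, where 4 had an unadjusted p under 0.05, DESeq2 called 1 as higher and limma-voom called 1 as higher and 3 as lower. Pck1, which commits carbon to glucose, was at 691, 738, 1300.3 and 443 CPM in CRE- replicates 1 to 4 and 826, 2765, 760.2 and 815 CPM in LKO replicates 1 to 4. Replicate 2 of the LKO group was far above the other 7 livers, which overlapped. In the list of 27 glycolysis and glycogen genes 2 were higher and 2 lower, beside 2.09% and 2.15% over all genes. The median was -0.14, or -0.25 to -0.02 with each liver left out. Hk2, a hexokinase of growing tissues, was higher, at 3.904, 2.76, 2.99 and 1.76 CPM in CRE- replicates 1 to 4 and 36.02, 3.91, 7.99 and 6.31 CPM in LKO replicates 1 to 4. All LKO livers were above the controls, and replicate 1 stood far above the other LKO livers. Pygl, liver glycogen phosphorylase, had a log2 fold change of -0.93 (SE 0.23). The higher calls of that list became 0, 0, 0 and 0 with CRE- replicates 1 to 4 left out in turn and 0, 3, 2 and 1 with LKO replicates 1 to 4 left out, and the lower ones 1, 0, 0 and 0 with CRE- replicates 1 to 4 left out in turn and 0, 4, 1 and 2 with LKO replicates 1 to 4 left out.

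Lists of xenobiotic metabolism each had a median under 0. Beside 2.15% over all genes, lower genes by edgeR numbered 3 of 41 in the Cyp1 and Cyp2 families, 4 of 9 in Cyp3a, 5 of 17 among carboxylesterases, 4 of 62 among conjugation enzymes, 3 of 20 among flavin monooxygenases and aldehyde enzymes, 3 of 22 among transporters and 3 of 21 among hepatocyte transcription factors. In that order DESeq2 called 6, 4, 6, 14, 5, 4 and 4 as lower and limma-voom 10, 4, 6, 20, 6, 5 and 5, beside 750 and 903 of 16742 over all genes. A single gene of these lists, in the conjugation enzymes, was higher by edgeR. DESeq2 and limma-voom each called 1 gene of the Cyp1 and Cyp2 list and 2 conjugation enzymes as higher. The medians ran from -0.71 for carboxylesterases (-0.95 to -0.44 with each liver left out) to -0.33 for transcription factors (-0.46 to -0.19). Summed CPM of Cyp3a genes was not lower in every LKO liver, at 4993, 5192, 5064 and 4175 in CRE- replicates 1 to 4 and 3271, 6387, 3348 and 5728 in LKO replicates 1 to 4. Cyp2f2, a P450 of periportal hepatocytes, was at 377, 748, 858 and 579.6 CPM in CRE- replicates 1 to 4 and 72.3, 223, 89.8 and 92.7 CPM in LKO replicates 1 to 4. Every LKO liver was below every control and replicate 2 was the highest of them, with a log2 fold change of -2.42 (SE 0.46). Cyp2j5 and Cyp2a12 had log2 fold changes of -1.41 (SE 0.29) and -0.75 (SE 0.20). Among conjugation enzymes, Ugt1a5, which attaches glucuronic acid, was at 142, 148, 139 and 141 CPM in CRE- replicates 1 to 4 and 17.6, 48.8, 46.2 and 39.9 CPM in LKO replicates 1 to 4. Controls were nearly equal for that gene, and its log2 fold change was -1.90 (SE 0.34). Papss2, which makes the sulfate donor, had a log2 fold change of -1.28 (SE 0.21) and, like Ugt1a5 and Cyp2f2, was called in all 8 fits. Carboxylesterases Ces1e, Ces2e and Ces2a had log2 fold changes of -1.58 (SE 0.34), -1.33 (SE 0.35) and -0.86 (SE 0.22), and the related deacetylase Aadac of -1.11 (SE 0.28). The carboxylesterase calls became 3, 1, 1 and 1 with CRE- replicates 1 to 4 left out in turn and 1, 5, 3 and 2 with LKO replicates 1 to 4 left out, and those of Cyp1 and Cyp2 3, 1, 1 and 2 with CRE- replicates 1 to 4 left out in turn and 2, 5, 2 and 2 with LKO replicates 1 to 4 left out. In the same order of livers left out, CRE- replicates 1 to 4 and then LKO replicates 1 to 4, the lower calls became 2, 2, 2, 2, 3, 4, 4 and 4 for Cyp3a, 4, 2, 2, 2, 3, 7, 4 and 4 for conjugation enzymes, 2, 0, 0, 0, 0, 5, 2 and 1 for flavin monooxygenases and aldehyde enzymes, 2, 0, 0, 0, 1, 5, 2 and 2 for transporters and 1, 0, 1, 1, 1, 4, 2 and 1 for transcription factors. The higher conjugation gene was called in 1 of these fits, without LKO replicate 1. In mean log2 CPM the Cyp1 and Cyp2 list was -1.39, -0.17, -0.33 and -1.33 from the control mean in LKO replicates 1 to 4, so replicates 1 and 4 carried it, while the conjugation list was -1.68, -0.16, -0.64 and -0.60 and rested most on replicate 1.

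Genes that female livers express more than male livers were lower on average in all 4 LKO livers, though not for every gene. Of 25 tested, 7 were lower and none higher, beside 2.15% lower over all genes, with a median of -1.52. The list lay -2.48, -1.58, -2.26 and -2.81 from the control mean in LKO replicates 1 to 4 against -0.27 to 0.20 in controls. DESeq2 called 11 of the 25 as lower and limma-voom 14. Cyp3a41b was at 221, 286, 153 and 255 CPM in CRE- replicates 1 to 4 and 21.2, 6.76, 1.902 and 23.8 CPM in LKO replicates 1 to 4. Replicate 3 was the lowest LKO liver, and the log2 fold change was -4.10 (SE 0.55) with an adjusted p of 0.00274 from edgeR's quasi-likelihood test after Benjamini-Hochberg adjustment. Cyp3a44 was at 397, 331, 191 and 205 CPM in CRE- replicates 1 to 4 and 79.9, 16.4, 13.9 and 46.6 CPM in LKO replicates 1 to 4, also without overlap, and the log2 fold changes of its neighbours Cyp3a41a and Cyp3a16 were -2.73 (SE 0.64) and -1.79 (SE 0.42). These Cyp3a genes are near-identical copies on chromosome 5, and reads that mapped to more than 1 place were not counted, so the share of each is uncertain. A1bg, a secreted plasma protein, was at 1363, 2996, 935 and 4711 CPM in CRE- replicates 1 to 4 and 90.3, 260.4, 11.4 and 10.7 CPM in LKO replicates 1 to 4. Controls themselves spread over several-fold, yet the lowest was above every LKO liver, and the log2 fold change was -4.75 (SE 1.11). Hamp2, a hepcidin gene, had 312, 638, 778 and 1277 CPM in controls and 2.49, 93.04, 31.4 and 0.347 CPM in LKO livers. LKO replicates 1 and 4 were near 0 and replicate 2 highest, under all controls. The 7 calls became 5, 2, 3 and 2 with CRE- replicates 1 to 4 left out in turn and 4, 7, 6 and 7 with LKO replicates 1 to 4 left out, and 3 in the females fitted alone. None of 20 male-biased genes was called by edgeR, where 5 had an unadjusted p under 0.05. DESeq2 called 2 higher and 2 lower, and limma-voom 2 higher and 1 lower. The median of that list was 0.46, or 0.26 to 0.40 with each liver left out.

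Esr1, Ghr and Prlr, receptors for hormones that act on the sex pattern of the liver, were among the lower genes, and such receptors were not counted as a list. Esr1, the estrogen receptor, was at 57.2, 55.2, 40.03 and 44.8 CPM in CRE- replicates 1 to 4 and 30.01, 16.8, 16.04 and 16.1 CPM in LKO replicates 1 to 4. Replicate 1 was the highest LKO liver here, unlike most lower genes, and the log2 fold change was -1.32 (SE 0.26), lost only without CRE- replicate 2 (-1.26). Of 16 genes of the growth hormone and STAT5 axis 3 were lower and 1 higher, beside 2.15% and 2.09% over all genes. Ghr, the growth hormone receptor, was at 372, 470.3, 479 and 428 CPM in CRE- replicates 1 to 4 and 128, 246, 206 and 158 CPM in LKO replicates 1 to 4. Replicate 1 was lowest and replicate 2 highest of the LKO livers for Ghr, without overlap. Prlr, the prolactin receptor, had a log2 fold change of -1.17 (SE 0.23), and Igfals, which carries IGF1 in blood, of -1.42 (SE 0.25). The higher gene was Igfbp1, which binds IGFs and is repressed by insulin, at 41.2, 28.5, 24.996 and 28.5 CPM in CRE- replicates 1 to 4 and 117, 62.8, 104 and 728 CPM in LKO replicates 1 to 4. Without LKO replicate 4, the highest, its log2 fold change went from 3.04 (SE 0.69) to 1.62 and was not called. It also lost the call without CRE- replicates 2, 3 and 4 (2.95 to 3.03 over the 3), and Ghr did so without the same 3 controls (-1.21, -1.20 and -1.23). The median of that axis was -0.04, and its sign turned under 1 of 5 other scalings and without CRE- replicate 4, LKO replicate 1 and LKO replicate 2 (0.06, 0.04 and 0.03).

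Major urinary proteins, pheromone carriers that the liver secretes, had a low median. Of 20 tested 6 were lower and none higher, beside 2.15% lower over all genes. The median of the 20 was -4.29, or -4.23 with the 6 genes at or under 3 read pairs in a group set to their bound. Their summed CPM was 569, 973, 1645 and 653 in CRE- replicates 1 to 4 and 126, 598, 945 and 20.3 in LKO replicates 1 to 4. LKO replicates 2 and 3 thus lay within the control range for the sum, with replicate 1 under it and replicate 4 far under it. Mup15 was at 9.05, 60.4, 75.5 and 50.2 CPM in CRE- replicates 1 to 4 and 0, 0.299, 1.02 and 0 CPM in LKO replicates 1 to 4, with no overlap of the groups, and Mup16 had a log2 fold change of -6.08 (SE 1.35). The 6 calls became 5, 0, 0 and 0 with CRE- replicates 1 to 4 left out in turn and 0, 4, 5 and 0 with LKO replicates 1 to 4 left out, DESeq2 called 12 and limma-voom none, and the median ran from -6.50 to -3.96 in the 8 fits. These genes too are near-identical copies, so their values per gene are uncertain.

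Hepatocyte identity genes and the subunits of complexes I to V encoded in the nucleus were lowest in LKO replicate 1. Of 21 hepatocyte identity genes 1, Serpina1b, was lower (log2 fold change -1.02), beside 2.15% over all genes. Serpina1b is a member of a family of near-identical genes. The list median was -0.42, or -0.26 without LKO replicate 1. The 1 call became 1, 0, 0 and 0 with CRE- replicates 1 to 4 left out in turn and 0, 3, 2 and 0 with LKO replicates 1 to 4 left out, where DESeq2 called 5 as lower and limma-voom 4 with all livers. The list lay -0.91, -0.22, -0.48 and -0.37 from the control mean in LKO replicates 1 to 4. In these bulk samples, fewer cells of a type and less RNA per cell cannot be told apart. Alb was at 92405, 90167, 94346 and 105504 CPM in CRE- replicates 1 to 4 and 41687, 71962, 69446 and 53284 CPM in LKO replicates 1 to 4, without overlap, and its adjusted p was 0.103 in edgeR's quasi-likelihood test after Benjamini-Hochberg adjustment. Periportal genes had a median of -0.76, with 1 of 15 lower by edgeR (6 without LKO replicate 2 and 1 in each other fit), 5 lower and 1 higher by DESeq2 and 8 lower by limma-voom, and pericentral genes of 0.27, with 0 of 20 called by edgeR, 1 at an unadjusted p under 0.05 and 0 by DESeq2 and limma-voom. Glul, glutamine synthetase of the cells around the central vein, was at 1362, 1199.8, 1169 and 1678 CPM in CRE- replicates 1 to 4 and 1052, 1209.5, 1841 and 5724 CPM in LKO replicates 1 to 4. LKO replicate 4 alone was far above the rest, and its pericentral list was the highest of the 8 livers. Without that liver the pericentral median was -0.34. None of 37 complex I genes or 42 genes of complexes II to V was called by edgeR. In each list 10 had an unadjusted p under 0.05, not far from the share over all genes (3584 of 16742). DESeq2 called 2 of each as lower and limma-voom 0 and 2. Their medians were -0.47 and -0.52, and -0.20 and -0.25 without LKO replicate 1. In mean log2 CPM complex I was -1.55, -0.04, -0.25 and -0.46 from the control mean in LKO replicates 1 to 4, so replicate 2 was at the control level. These genes are short, with a median exon length of 936 bases in complex I, and in LKO replicate 1 the median deviation was -0.64 over the 3350 genes tested with the shortest exons and 0.49 over the 3349 with the longest. The part of that trend in the list values was not tested. Mitochondrially encoded transcripts, none of 13 called by edgeR (4 at an unadjusted p under 0.05, 3 by DESeq2, 2 by limma-voom), lay -0.97, -0.38, -0.23 and -1.37 from it and were lowest in replicate 4.

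**Figure D3:**
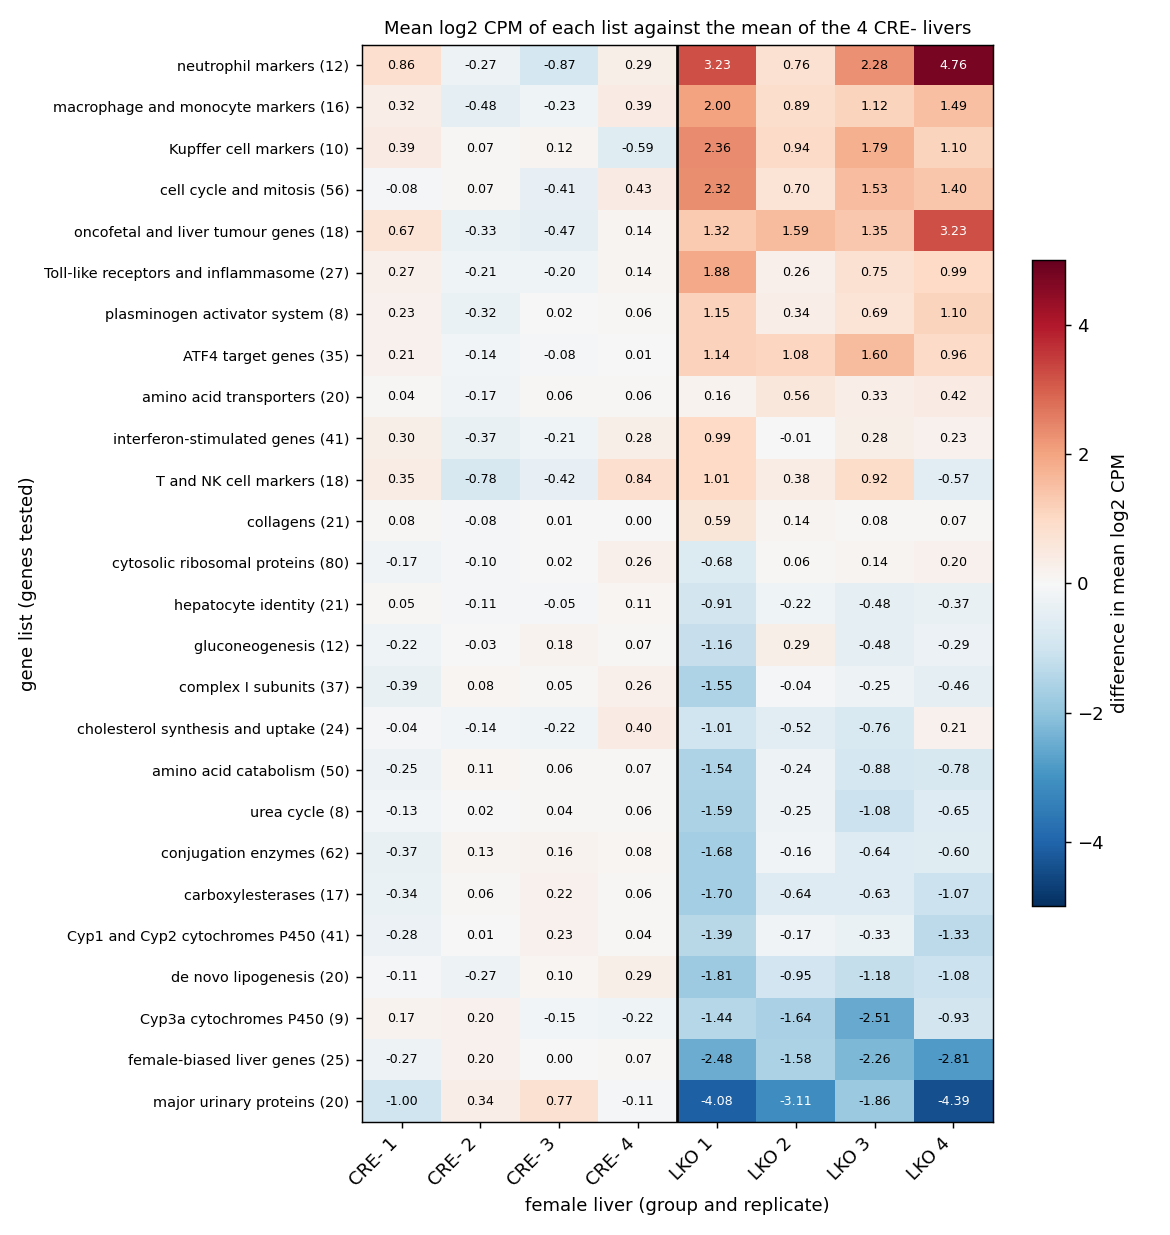
Mean log2 CPM of 26 gene lists in each female liver, as the difference from the mean of the 4 CRE- livers, with the number of genes tested in brackets. Red is higher and blue lower, and the scale is in log2 units. LKO replicate 4 is highest for neutrophil (4.76) and oncofetal (3.23) genes, LKO replicate 1 for Kupffer cell (2.36) and cell cycle (2.32) genes, and LKO replicate 2 lies closest to the controls for most lists. The cytosolic ribosomal proteins change the sign of their median under 2 of 5 other scalings.

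Of 56 cell division genes tested, 19 were higher and none lower by edgeR, beside 2.09% higher over all genes. At an unadjusted p under 0.05 there were 49, beside 3584 of 16742 over all genes. The median log2 fold change of the 56 was 1.74. DESeq2 called 41 as higher and 1 as lower, and limma-voom 40 as higher and 1 as lower. The list stood 2.32, 0.70, 1.53 and 1.40 above the control mean in LKO replicates 1 to 4, against -0.41 to 0.43 in controls. Nek2, a kinase of centrosome separation, was at 1.06, 1.64, 1.15 and 0.802 CPM in CRE- replicates 1 to 4 and 6.34, 5.88, 3.59 and 4.74 CPM in LKO replicates 1 to 4. Ccne1, cyclin E1, was at 0.621, 0.0779, 0.239 and 0.481 CPM in CRE- replicates 1 to 4 and 2.54, 2.29, 1.54 and 2.08 CPM in LKO replicates 1 to 4, a log2 fold change of 2.57 (SE 0.49), and both genes separated the groups fully. Plk1, a kinase of mitosis, and Foxm1, the transcription factor of its program, had log2 fold changes of 2.76 (SE 0.62) and 2.53 (SE 0.57). Top2a, which untangles replicated DNA, was at 1.91, 1.46, 1.101 and 4.54 CPM in CRE- replicates 1 to 4 and 26.7, 4.09, 9.69 and 8.74 CPM in LKO replicates 1 to 4. CRE- replicate 4, the highest control, exceeded LKO replicate 2. The summed CPM over the list was 260.3, 251, 243 and 414 in CRE- replicates 1 to 4 and 715, 339, 475 and 370.1 in LKO replicates 1 to 4, with Ccnd1 the most abundant gene, and CRE- replicate 4 exceeded LKO replicates 2 and 4 in that sum. The 19 calls became 4, 2, 1 and 4 with CRE- replicates 1 to 4 left out in turn and 2, 32, 11 and 10 with LKO replicates 1 to 4 left out, and 3 with the females fitted alone, while the median stayed between 1.26 and 1.99 in the 8 fits.

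Of 18 fetal and tumour-associated liver genes tested, 7 were higher and none lower, beside 2.09% higher over all genes. The list had a median of 2.07 (1.26 without LKO replicate 4) and stood 1.32, 1.59, 1.35 and 3.23 above the control mean. Igf2, a fetal growth factor, was at 1.46, 1.25, 0.431 and 1.28 CPM in CRE- replicates 1 to 4 and 2.22, 32.5, 5.67 and 458 CPM in LKO replicates 1 to 4. H19, the non-coding RNA beside it, was at 6.81, 0.467, 0.575 and 2.51 CPM in CRE- replicates 1 to 4 and 6.62, 150.3, 71.8 and 1775 CPM in LKO replicates 1 to 4. Replicates 2, 3 and 4 exceeded all controls for both genes, and replicate 1 did so for Igf2 only. Without replicate 4 the log2 fold changes went from 6.81 (SE 1.32) to 3.60 for Igf2 and from 7.59 (SE 1.59) to 4.88 for H19, and both were still called, though neither was without CRE- replicates 2, 3 and 4 (6.87, 6.54 and 6.92 for Igf2, 7.24, 7.26 and 7.60 for H19). Ly6d, a surface protein of dedifferentiated and tumour cells, was at 4.303, 2.297, 2.15 and 5.88 CPM in CRE- replicates 1 to 4 and 17.02, 27.4, 35.01 and 240.0 CPM in LKO replicates 1 to 4, and Tspan8, a tetraspanin, at 2.75, 2.102, 1.82 and 1.39 CPM in CRE- replicates 1 to 4 and 3.78, 10.1, 4.13 and 33.005 CPM in LKO replicates 1 to 4. Neither gene overlapped between groups, and replicate 4 led in both. Afp, alpha-fetoprotein, was at 0.177, 0.273, 0.287 and 0.802 CPM in CRE- replicates 1 to 4 and 3.07, 0.598, 0.732 and 7.95 CPM in LKO replicates 1 to 4, with overlap in replicates 2 and 3. Igf2bp2, which binds Igf2 mRNA, went the other way, with LKO replicate 4 at 1.099 CPM within the controls and replicate 1 at 13.04 CPM. Myc was at 4.66, 2.98, 3.23 and 3.101 CPM in CRE- replicates 1 to 4 and 12.6, 9.62, 11.7 and 24.5 CPM in LKO replicates 1 to 4, a log2 fold change of 2.06 (SE 0.45). All LKO livers were above the controls for Myc and replicate 4 was highest. The 7 calls became 4, 1, 1 and 1 with CRE- replicates 1 to 4 left out in turn and 5, 7, 6 and 4 with LKO replicates 1 to 4 left out, and 1 in the females fitted alone.

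Of 12 neutrophil markers tested, 5 were higher and none lower, beside 2.09% higher over all genes, and the median of the 12 was 3.54. Summed over the list, CPM was 45.3, 24.9, 19.3 and 56.9 in CRE- replicates 1 to 4 and 173, 51.9, 99.2 and 744 in LKO replicates 1 to 4, with S100a9 the most abundant gene. LKO replicate 2 was within the control range. Mpo, the peroxidase of early granules, was at 1.15, 0.117, 0.192 and 0.160 CPM in CRE- replicates 1 to 4 and 17.5, 0.399, 4.94 and 38.96 CPM in LKO replicates 1 to 4. Ltf, lactoferrin of later granules, was at 1.198, 0.389, 0.287 and 0.374 CPM in CRE- replicates 1 to 4 and 14.1, 1.097, 5.32 and 46.4 CPM in LKO replicates 1 to 4. LKO replicate 2 fell under CRE- replicate 1 for both, and replicate 4 was highest. Mmp8 and Retnlg had log2 fold changes of 3.50 (SE 0.79) and 2.86 (SE 0.69), and their groups did not overlap. S100a8, a calcium-binding alarmin, was at 8.23, 4.87, 3.06 and 4.06 CPM in CRE- replicates 1 to 4 and 24.9, 8.83, 13.6 and 194 CPM in LKO replicates 1 to 4 and was not called, with an adjusted p of 0.0509 from edgeR's quasi-likelihood test after Benjamini-Hochberg adjustment, though its groups did not overlap either. It was called without LKO replicates 2 and 3 (3.94 and 3.92). The 5 calls became 2, 0, 0 and 0 with CRE- replicates 1 to 4 left out in turn and 0, 10, 7 and 0 with LKO replicates 1 to 4 left out, and none was called in the females fitted alone by edgeR. DESeq2 called 10 and limma-voom 4 in all livers, and the median log2 fold change ran from 2.22 to 3.94 in the 8 fits.

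Macrophage markers were highest in LKO replicate 1. Over all genes 2.09% were higher. Of 16 macrophage and monocyte markers 5 were higher and none lower (median 1.46), and of 10 Kupffer cell markers 1 was higher (median 1.35). In these lists 12 and 8 had an unadjusted p under 0.05, beside 3584 of 16742 over all genes. In the macrophage and monocyte list DESeq2 and limma-voom called 10 each as higher. Adgre1, which encodes F4/80 and is in both lists, was at 31.3, 28.5, 28.7 and 34.2 CPM in CRE- replicates 1 to 4 and 334, 45.2, 99.4 and 64.9 CPM in LKO replicates 1 to 4. The groups did not overlap, and replicate 1 was several times above the other LKO livers. Trem2, a lipid receptor of macrophages, was at 1.996, 1.25, 0.910 and 1.44 CPM in CRE- replicates 1 to 4 and 15.4, 3.29, 8.25 and 9.49 CPM in LKO replicates 1 to 4. Replicate 1 was highest and the groups did not overlap. Itgam, an integrin of myeloid cells, was at 7.27, 3.21, 2.49 and 2.299 CPM in CRE- replicates 1 to 4 and 45.5, 5.86, 14.4 and 25.3 CPM in LKO replicates 1 to 4. CRE- replicate 1 exceeded LKO replicate 2 for Itgam. Fcgr1 and Cd9 had log2 fold changes of 1.99 (SE 0.54) and 1.41 (SE 0.34), and Cd9 was highest in replicate 4, at 91.8 CPM. With each liver left out these went down to 1.25 and 0.92, and the genes were called in 1 and 3 of the 8 fits. Marco, a scavenger receptor, was at 40.3, 9.81, 12.7 and 0.0535 CPM in CRE- replicates 1 to 4 and 532, 86.5, 134 and 186 CPM in LKO replicates 1 to 4 and was not called. The summed CPM of the macrophage list, with Lyz2 the most abundant gene, was 559.6, 379, 413 and 645 in controls and 1642, 812, 1267 and 1037 in LKO livers. The 5 calls became 2, 0, 0 and 0 with CRE- replicates 1 to 4 left out in turn and 1, 9, 3 and 2 with LKO replicates 1 to 4 left out, and 1 in the females fitted alone. For the Kupffer list the 1 call, Adgre1, became 0, 0, 0 and 0 with CRE- replicates 1 to 4 left out in turn and 0, 3, 0 and 1 with LKO replicates 1 to 4 left out, where DESeq2 and limma-voom called 6 each, and without LKO replicate 1 the log2 fold change of Adgre1 was 1.21.

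Of 27 Toll-like receptor and inflammasome genes 5 were higher and none lower, beside 2.09% higher over all genes. The list had a median of 1.42, or 0.72 without LKO replicate 1. It stood 1.88, 0.26, 0.75 and 0.99 above the control mean in LKO replicates 1 to 4. DESeq2 called 13 of these genes as higher and limma-voom 11. Tlr13, which senses bacterial RNA, was at 4.37, 2.74, 2.97 and 1.07 CPM in CRE- replicates 1 to 4 and 52.6, 5.78, 8.14 and 12.3 CPM in LKO replicates 1 to 4. Replicate 1 was far above the others, and without it the log2 fold change went from 2.82 (SE 0.67) to 1.66. Cd14, a co-receptor for endotoxin, was at 6.52, 5.22, 3.93 and 9.09 CPM in CRE- replicates 1 to 4 and 41.6, 9.97, 13.8 and 93.4 CPM in LKO replicates 1 to 4, with replicate 4 highest. Casp4, Il1r1 and Il1rn, of the inflammasome and interleukin-1 system, had log2 fold changes of 1.96 (SE 0.49), 1.70 (SE 0.38) and 1.86 (SE 0.46). The 5 calls became 3, 0, 0 and 0 with CRE- replicates 1 to 4 left out in turn and 1, 12, 6 and 2 with LKO replicates 1 to 4 left out. Plau and its receptor Plaur, which turn plasminogen to plasmin at the cell surface, made 2 of 8 genes of that system higher, with log2 fold changes of 2.16 (SE 0.55) and 2.05 (SE 0.43). Without LKO replicate 1 the log2 fold change of Plau was 1.16 and was not called. Among 18 immediate early genes Fosl2 (1.23), Klf6 (1.30) and Myc were higher, and none was lower. Those 3 calls became 2, 0, 0 and 0 with CRE- replicates 1 to 4 left out in turn and 2, 3, 3 and 1 with LKO replicates 1 to 4 left out, and Klf6 was called in 2 of the 8 fits. Of 24 NF-kB subunits and targets Ier3 (2.27) and Plau were higher, with a median of 0.73, while 11 had an unadjusted p under 0.05 and DESeq2 and limma-voom called 6 each. The edgeR calls became 1, 0, 0 and 0 with CRE- replicates 1 to 4 left out in turn and 1, 6, 2 and 0 with LKO replicates 1 to 4 left out. Both calls were lost without CRE- replicates 2, 3 and 4 and LKO replicate 4, where the log2 fold change of Ier3 was 2.10, 2.39, 2.23 and 1.46 and that of Plau 2.01, 2.19, 2.28 and 2.29.

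Interferon and acute-phase genes gave few calls. None of 41 interferon-stimulated genes was called by edgeR, and the median was 0.39. At an unadjusted p under 0.05 there were 11, not far from the share over all genes (3584 of 16742). DESeq2 called 5 as higher, beside 1066 over all genes, and limma-voom 3 higher and 1 lower. The list stood 0.99, -0.01, 0.28 and 0.23 from the control mean in LKO replicates 1 to 4, so replicate 1 alone lay outside the control range, and without it the median was 0.07. None of 14 cGAS-STING genes was called (6 at an unadjusted p under 0.05; 1 lower by DESeq2 and by limma-voom), nor any of 25 chemokines (10 at an unadjusted p under 0.05; 3 higher and 1 lower by DESeq2; 5 higher and 2 lower by limma-voom), by edgeR. Beside 8891 of 16742 over all genes, log2 fold changes were above 0 for 12 of the 14 cGAS-STING genes (median 0.62, or 0.36 without LKO replicate 1). The same held for 19 of the 25 chemokines (median 0.54, or 0.41 to 0.98 with each liver left out). The cGAS-STING list stood 0.99, 0.05, 0.48 and 0.27 above the control mean in LKO replicates 1 to 4, against -0.19 to 0.19 in controls. Acute-phase proteins varied within both groups. Saa1, serum amyloid A, was at 621, 43.8, 70.3 and 234 CPM in CRE- replicates 1 to 4 and 143, 105, 77.7 and 2181 CPM in LKO replicates 1 to 4, and Lcn2, lipocalin 2, at 307, 18.4, 16.2 and 104 CPM in CRE- replicates 1 to 4 and 202, 114, 83.5 and 4025 CPM in LKO replicates 1 to 4. CRE- replicate 1 was the highest control and LKO replicate 4 the highest of all for both genes, and neither was called. Of 24 acute-phase genes 1, Il1rn, was higher, beside 2.09% over all genes. Il1rn lost the call without each CRE- replicate and without LKO replicate 4, where its log2 fold change was 1.14. The list median was 0.61, or 0.05 without LKO replicate 4.

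Other cell types showed less. T and NK cell, B and plasma cell, cholangiocyte, and stellate cell and fibroblast markers had 0 called genes of 18, 12, 14 and 16 by edgeR, with 2, 2, 2 and 1 at an unadjusted p under 0.05, and DESeq2 called 1, a cholangiocyte marker, where limma-voom called 3, 1, 1 and 2. Over all genes 2.09% were higher and 2.15% lower. Of 14 endothelial markers 2 were higher, Cdh5 at 0.79 (SE 0.17) and Vwf at 1.15 (SE 0.28), with a median of -0.11 (0.01 without CRE- replicate 4). LKO replicate 3 overlapped the controls for Vwf, and no liver did for Cdh5. Neither was called without CRE- replicates 2, 3 and 4 or LKO replicate 1, with log2 fold changes without LKO replicate 1 of 1.04 and 0.71 and, without those 3 controls in order, 1.12, 1.11 and 1.12 for Vwf and 0.84, 0.81 and 0.71 for Cdh5. Vwf also lost its call without CRE- replicate 1 and LKO replicate 4 (1.24 and 0.86). In the collagens 1 of 21 genes was lower, Col15a1, at 22.2, 21.1, 20.2 and 19.5 CPM in CRE- replicates 1 to 4 and 10.8, 10.3, 13.5 and 7.52 CPM in LKO replicates 1 to 4. It was called in all 8 fits, and the groups did not overlap. The part of immune, endothelial or other cells in the results was not tested.

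The male livers, which also entered the joint fit, served here to ask where the female response differed. No gene passed for the difference between the female and the male response in edgeR's quasi-likelihood test after Benjamini-Hochberg adjustment, where the smallest adjusted p was 0.104, while 2672 genes had an unadjusted p under 0.05 and DESeq2 called 371. Without LKO replicates 2, 3 and 4 the edgeR count was 10, 14 and 2. Of the 710 DEGs, which were selected by their female values, 471 (66.3%) had the same sign in males, beside 46.03% of all genes tested, and 39 were called in males as well, out of 76 genes called there, among them Asns, Psat1, Phgdh, Mthfd2, Scd1, Acly, Acacb, Elovl5, Esr1, Dct, Baalc and Wnt10a. For Scd1 the log2 fold change was -2.03 in females and -2.29 in males, and for Ces3b -3.23 and -0.91, with an unadjusted p of the difference of 0.547 and 0.000113 in edgeR's fit of all 16 livers. Both genes were named for their female values, which that p uses again.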

How the data were processed

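Liver RNA of 4 female CRE-, 4 female LKO, 4 male CRE- and 4 male LKO mice was measured by sequencing, and the female groups were compared. The authors aligned paired reads to GRCm39 with STAR 2.7.1a and counted them per gene by strand with featureCounts of Subread 2.0.6, per the labels and the file headers. They deposited counts of reads per gene and library, where both mates of a pair were counted as reads and reads that mapped to more than 1 place were not counted. Gene symbols and coordinates were used as deposited.

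Of 41079 genes, edgeR's filterByExpr (minimum count 10) kept 16742. All 16 libraries were scaled by TMM and fitted together with 4 groups in edgeR 4.0.16 under R 4.3.3, by its quasi-likelihood test after Benjamini-Hochberg adjustment over all genes tested and a threshold of 0.05 on adjusted p. Female LKO was tested against female CRE-, and that response against the male one. Values per liver are CPM after TMM, and log2 CPM used a prior count of 2. Female libraries held 33268424 to 56488920 reads.

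Named genes were the 15 higher and 15 lower ones with the smallest p whose groups did not overlap, members of 65 gene lists, and genes stated to be chosen after their values were seen. The members of the comparison and the lists were chosen with earlier results of these data known. A list is described by the number called in each direction, the median log2 fold change, and its mean log2 CPM in each liver against the mean of the 4 CRE- livers.

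Alternatives were RLE and upper-quartile scaling, no filter, a filter of at least 10 counts in every library, females fitted alone, a replicate block, the Wald test of DESeq2 1.42.0, limma-voom with sample quality weights (limma 3.58.1), a threshold of 0.01, a log2 fold change of at least 1, and each female library left out. The scripts were tested on simulated data. Each mouse is 1 replicate, and no pair of libraries differed by less than sampling noise, the smallest chi-square per degree of freedom being 50.6. Promoters came from RefSeq on GRCm38.p6, an earlier build than that of the counts.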

Additional observations from a re-analysis of the deposited data

Results flagged for a closer look

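In 47 of 388 groups of 4 livers examined, over 129 genes and 65 lists, 1 liver lay far from the other 3, by a gap that took up most of the group's range. For normally distributed values, chance alone gives such a liver in about 1 of 20 groups. CPM values were not shown to be so distributed, so the number expected by chance here is not known. A group with reads in a single liver, as the controls for Baalc and Adm2, is flagged however few the reads. Genes that vary together are not separate cases.

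LKO replicate 4 stood apart most often, always as the highest LKO liver, for Ly6d (240.0 CPM), Insig1 (436), Igf2 (458), H19 (1775), Igfbp1 (728), S100a8 (194), S100a9 (258), Lcn2 (4025), Saa1 (2181), Il1rn (45.8), Ier3 (15.8) and Glul (5724), and for the oncofetal list, at 3.23 log2 units from the mean of the controls. LKO replicate 1 was far above the other LKO livers for Tlr13 (52.6 CPM), Esr1 (30.0), Jdp2 (12.6) and Hk2 (36.0), and far from them for Chic1 (2.92). Its collagen list stood at 0.59, while its mitochondrial ribosomal (-1.12), cytosolic ribosomal (-0.68) and kidney and other abdominal tissue (-0.98) lists were low. The cytosolic ribosomal list changed the sign of its median under 2 of 5 other scalings. LKO replicate 2 was apart from its group for Cyp2f2 (223 CPM), Cbs (571), Slc38a4 (828) and Pck1 (2765), and for the chemokine (0.39), immediate early (0.49) and adipocyte (0.87) lists. LKO replicate 3 was the highest of its group for Mup16 (0.494 CPM).

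Among controls, replicate 1 stood above the others for Asns (1.91 CPM), Adm2 (0.0444), Mpo (1.15), Ltf (1.20), S100a9 (14.9), Myc (4.66) and Vwf (15.3), and apart from them for Ces2e (236). Its amino acid catabolism (-0.25), conjugation (-0.37), male-biased (-0.43) and endothelial (-0.27) lists were the lowest of the controls. Control replicate 2 differed for Baalc (0.0389 CPM), for the amino acid transporter list (-0.17) and, most of all, for the 2 pancreatic acinar markers tested (4.72). Replicate 4 differed for Fads2 (900.2 CPM) and Agxt (519.7).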

How the results depend on the processing

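The number of DEGs (710, 350 higher and 360 lower) depended on the test and on single livers more than on scaling or filter. It was 119 with females fitted alone (47 higher, 72 lower), 1816 by DESeq2 (1066 and 750), 1976 by limma-voom (1073 and 903), and 51 at a threshold of 0.01 (14 and 37). With each liver left out it ran from 87 to 1310, from 21 to 761 for higher and from 66 to 549 for lower genes. Asking for a log2 fold change of at least 1 left 210 lower genes.

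For Gcgr in female LKO mice the log2 fold change was -0.91 with females fitted alone (adjusted p = 0.132), -0.87 with upper-quartile scaling (0.0707), -0.92 without a filter (0.0545) and -0.89 with at least 10 counts in every library (0.0506), all from edgeR's quasi-likelihood test after Benjamini-Hochberg adjustment. It ran from -1.11 to -0.69 with each liver left out, and at -0.93 its adjusted p of 0.0443 from that edgeR test after Benjamini-Hochberg adjustment missed a threshold of 0.01. Over all alternatives the adjusted p ran from 0.00807 (DESeq2) to 0.136.

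With a replicate block 1012 genes were called, 426 higher and 586 lower, of which 575 were among the 710, and 10 of 117 called genes named in the text lost their call. The labels give no pairing. Deviations of livers of the same number correlated at 0.17, 0.10, 0.12 and 0.03, and those of other pairs from -0.23 to 0.24, so pairing by number cannot be told from these values.

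The interaction of genotype with sex had 0 genes in edgeR (2672 at an unadjusted p under 0.05), 371 in DESeq2, and 0 to 14 with each female liver left out. Saa1 changed direction without LKO replicate 4, to a log2 fold change of -1.17, ran up to 2.43 with CRE- replicate 1 left out, and was not called in any of these fits. The median log2 fold change of all genes stayed between -0.02 and 0.07 in these alternatives.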

Other observations

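Per1, a repressor of the circadian clock, was at 6.17, 3.54, 21.5 and 8.39 CPM in CRE- replicates 1 to 4 and 14.4, 63.97, 29.7 and 28.9 CPM in LKO replicates 1 to 4. LKO replicate 1 lay within the control range and replicate 2 was the highest of all. Its log2 fold change of 1.79 (SE 0.58) was not called. None of 19 clock genes was called by edgeR, where 2 had an unadjusted p under 0.05 and DESeq2 and limma-voom called 1 each. Their median of -0.11 changed sign under 1 of 5 other scalings and without CRE- replicate 3 and LKO replicate 1 (0.01 and 0.04). Time of day at sampling was not given in the labels.

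The sums of markers of tissues beside the liver differed among livers. The summed CPM of 2 pancreatic acinar markers was 7.96, 278, 9.36 and 12.001 in CRE- replicates 1 to 4 and 7.35, 8.95, 11.96 and 12.5 in LKO replicates 1 to 4. That of 8 adipocyte markers was 29.7, 33.3, 37.4 and 33.3 and 30.7, 62.2, 27.1 and 135, with Fabp4 the most abundant, and of 9 erythroid markers 546, 486, 393 and 791 and 415, 873, 306 and 1656. None of the genes of these 3 lists was called by edgeR (2, 2 and 3 with an unadjusted p under 0.05), and DESeq2 called 0, 0 and 2 and limma-voom 0, 1 and 0. Among 9 skeletal muscle markers, the sum was 9.404, 1.13, 1.36 and 36.1 and 1.41, 17.7, 2.12 and 1.62. Their part in the results was not tested.

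Further lists gave 1 edgeR call or none. Over all genes 2.15% were lower and 2.09% higher, so a single call in lists this small says little about the list. Lower genes numbered 1 of 16 apolipoprotein genes (median -0.62), 1 of 20 coagulation factors (-0.40), 1 of 20 complement genes (0.01) and 1 of 6 genes of kidney and other abdominal tissues (-0.98). The complement median changed sign with single livers left out, from -0.08 without CRE- replicate 2 to 0.14 without CRE- replicate 1. DESeq2 called 5, 8, 3 and 1 of these 4 lists as lower and limma-voom 4, 5, 2 and 1. Those tools also called more genes overall than edgeR, with 750 and 903 of 16742 lower against 360. All 4 LKO livers lay below every control in mean log2 CPM for the apolipoprotein and coagulation lists. With CRE- replicates 1 to 4 and then LKO replicates 1 to 4 left out, the edgeR calls became 1, 0, 1, 0, 1, 2, 1 and 1 for apolipoproteins, 0, 0, 0, 0, 0, 4, 0 and 0 for coagulation, 1, 0, 0, 0, 0, 3, 1 and 0 for complement and 1, 0, 0, 0, 0, 1, 1 and 0 for kidney and other tissues. Among 18 NRF2 targets 1 was higher (median 0.20, or 0.10 to 0.32 with each liver left out), and the number called was 0, 0, 0, 0, 0, 1, 1 and 0 with CRE- replicates 1 to 4 and then LKO replicates 1 to 4 left out. In mean log2 CPM that list lay 0.47, 0.75, 0.44 and 0.81 above the control mean in LKO replicates 1 to 4. Controls were at -0.14 to 0.12. None of 78 mitochondrial ribosomal, 80 cytosolic ribosomal, 38 proteasome, 23 antigen presentation and 17 p53 and senescence genes was called by edgeR. At an unadjusted p under 0.05 there were 15, 1, 1, 1 and 8, beside 3584 of 16742 over all genes. In that order of lists DESeq2 called 3, 0, 0, 1 and 3, and limma-voom 2, 0, 1, 1 and 5.

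The limits of these data are those of bulk RNA from 4 livers in each group at a single age, with a deletion present from development. Protein, metabolites and the number of cells of each type were not measured in them. LKO replicates 1 and 4 differed from each other as well as from the controls, and the DEGs rest on 8 livers that single animals can shift.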
